A study of Mus musculus with 10 samples.

Results

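Immediate early genes are switched on by growth factor, stress and cytokine signals without new protein synthesis, and their mRNAs are usually short-lived. Many encode transcription factors. FOS and JUN proteins pair to form AP-1, EGR1 is a zinc-finger activator and MYC drives growth genes, whereas ZFP36 (tristetraprolin) binds AU-rich elements in mRNAs and promotes their decay. In liver these genes are known for transient induction after partial hepatectomy, tissue injury and hormone signals. The 10 genes described here (Fos, Fosb, Jun, Junb, Jund, Egr1, Ier2, Ier3, Myc and Zfp36) were chosen by name, and each was found once by its Ensembl identifier among the 41388 genes of the 10 liver libraries.

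The livers came from C57B/6J mice of about 12 wk, with 1 RNA-seq library per mouse. WT Fasting mice (n = 3) and NAMPT LKO Fasting mice (n = 5) had been fasted for 24 h, and WT Refed mice (n = 2) for 22 h followed by 2 h of refeeding, per the labels. The study's text instead describes a shorter fast and random-fed controls, so the feeding state of the WT Refed group is uncertain. WT mice carried floxed, intact Nampt alleles (NAMPT fl/fl), and NAMPT LKO littermates lost Nampt, the rate-limiting enzyme of NAD+ salvage, through Albumin-cre, which is active in hepatocytes and leaves other liver cells intact. No group of refed NAMPT LKO mice was analysed here, so whether the response to feeding depends on genotype could not be tested.

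Total counts ranged from 30603080 to 43434139 per library. Levels are given as CPM, counts scaled to the library total after TMM correction, and genes over 1 CPM in at least 1 library were tested (13444 genes). A gene was called when edgeR's quasi-likelihood test of all 10 libraries gave an adjusted p (Benjamini-Hochberg) of 0.05 or less. Nampt was 11.8 to 15.3 CPM in NAMPT LKO livers, below the 63.0 to 141 CPM of WT Fasting livers (log2 fold change -2.81, SE 0.22, adjusted p = 0.00102). All 5 hepatocyte markers were present in every group, with a summed level of 57944 to 104725 CPM. Library NAMPT LKO Fasting 5 stood apart, since its deviation from the mean of all 10 libraries correlated with the GC content of genes (Spearman rho -0.58 over 13369 genes, against -0.035 to 0.27 in the other 9 libraries). WT Fasting 3 had the highest sum of 6 Kupffer cell and macrophage markers, 306 CPM against 173 and 175 CPM in the other WT Fasting livers. In whole liver, fewer cells of a type and less RNA per cell cannot be told apart.

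The promoters of Zfp36, the one member called, and of Fos, the member with the largest fold change, are shown because both passed an unadjusted p under 0.05 between fed states. The 250 bases upstream of the RefSeq start are printed 5′ to 3′ on the gene's strand (GRCm38.p6), with motif matches in capitals. A RefSeq promoter was found for 7 members (Fos, Fosb, Jun, Junb, Jund, Ier3 and Zfp36). The motifs searched on both strands were the CArG box bound by SRF, the CRE core TGACGT bound by CREB, the AP-1 site TGANTCA, the EGR site GCGNGGGCG and the TATA box TATAAA.
Fos, chr12:85473640-85473889, plus strand: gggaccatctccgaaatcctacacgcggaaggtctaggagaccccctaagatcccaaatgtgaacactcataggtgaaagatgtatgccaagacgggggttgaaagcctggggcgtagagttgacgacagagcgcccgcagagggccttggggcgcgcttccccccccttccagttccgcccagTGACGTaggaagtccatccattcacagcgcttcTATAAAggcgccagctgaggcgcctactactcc
Zfp36, chr7:28379229-28379478, minus strand: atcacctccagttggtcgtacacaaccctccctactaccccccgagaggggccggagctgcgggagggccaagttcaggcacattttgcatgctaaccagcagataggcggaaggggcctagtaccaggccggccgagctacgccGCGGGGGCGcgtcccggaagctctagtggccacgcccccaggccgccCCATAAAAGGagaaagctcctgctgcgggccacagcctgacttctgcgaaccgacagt
In the Fos window the capitals mark TGACGT, 66 to 61 bases upstream of the start, and TATAAA, 33 to 28 bases upstream. In the Zfp36 window they mark an EGR site 105 to 97 bases upstream and a CArG box 58 to 49 bases upstream. Fosb held 1 EGR site, 50 to 42 bases upstream, and the windows of Jun, Junb, Jund and Ier3 held no exact match. Sites farther upstream, and sites that differ from the searched letters, were not searched. A missing match therefore does not show that a gene lacks such a site. For Jund the window ends at the start used for counting (70697739), whereas another gene annotation starts at 70698949. Among 32851 promoter windows of the same length, 1.47% held the CArG box, 6.47% TGACGT, 6.75% TGANTCA, 4.70% the EGR site and 12.4% TATAAA. The searched motifs did not overlap one another in these matches, which are descriptions of letters and not evidence of binding.

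Levels per exonic length are given as RPKM on the TMM scale. Zfp36 was the most abundant, with a median of 40.5 RPKM over the 10 livers (range 27.4 to 64.8), and its lowest liver lay above the highest liver of every other member except Junb, which reached 27.6 RPKM in WT Fasting 3. Jund, the constitutively expressed member of the JUN family, followed at 19.6 RPKM (10.1 to 24.6). Junb (13.9), Ier2 (13.5), Jun (7.59), Egr1 (4.02) and Myc (3.08) followed in descending order of median RPKM, and each of these neighbours overlapped the next across livers. Ier3, an early gene linked to cell survival, had a median of 0.532 RPKM and overlapped Fos (0.413 RPKM), but both lay below every Myc value. Fosb was lowest, with a median of 0.0787 RPKM and a highest liver (0.133) below the lowest Fos liver (0.167). Per length, every liver held more Jun, Junb and Jund mRNA than Fos or Fosb mRNA in any liver.

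**Figure D1:**
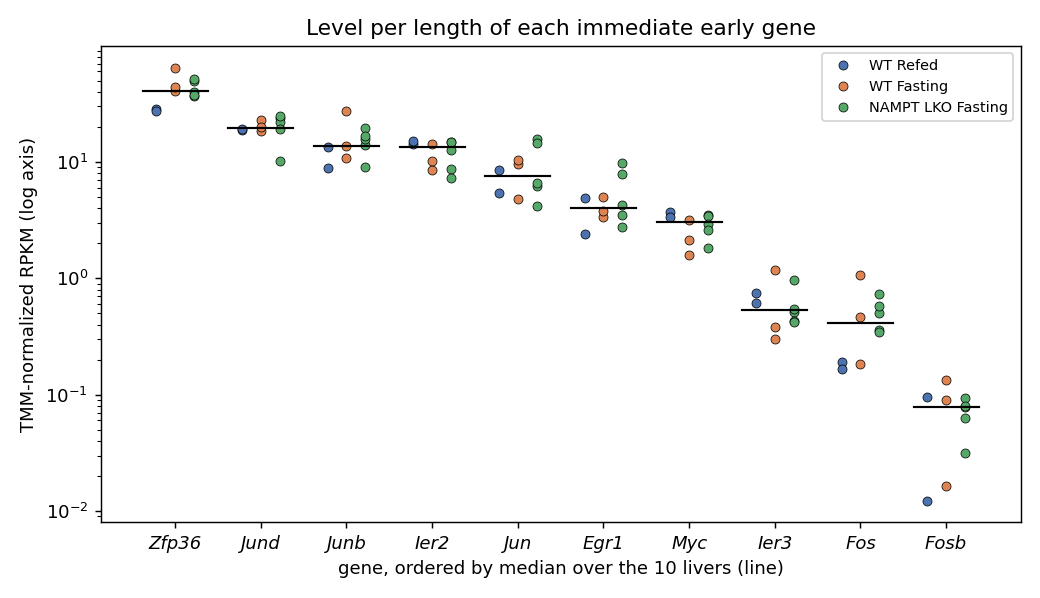
Level per exonic length of the 10 genes in each liver, as TMM-normalized RPKM on a log axis, coloured by group, with a line at the median of the 10 livers. Zfp36 (median 40.5 RPKM) lies above all values of the other genes except Junb in WT Fasting 3 (27.6 RPKM), and Ier3, Fos and Fosb (medians 0.532, 0.413 and 0.0787 RPKM) lie below all values of Myc.

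The members lie on chromosomes 4, 7, 8, 12, 15, 17 and 18 in GRCm38, as the files place them. Junb (8:84976909-84978748), Jund (8:70697739-70700616) and Ier2 (8:84661331-84662852) share chromosome 8, and these and Jun (4:95049034-95052222) were annotated as a single exonic block. Zfp36 (7:28376784-28379255) and Fosb (7:19302721-19310045) share chromosome 7. Jun overlaps the antisense gene Junos over 232 exonic bases, and Junos held 2 to 14 counts per library. Jund overlaps Gm11175, which held 0 counts in every library, over 543 bases. The paper states that only uniquely aligned, unambiguous reads were counted. Whether counting used strand is not given in the sources used here. It is therefore not known whether reads over these shared bases were left out, which would lower the counts of Jun and Jund.

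The comparison of WT Fasting with WT Refed livers asked how the genes stood in the fasted and refed states. Zfp36 was the only member called, 1.78-fold higher in WT Fasting livers. Fos had a larger but much less certain difference, and the other 7 tested members were not called. Of 9 members tested, 1 was called higher and 0 lower, whereas 2.68% of all tested genes were called higher and 4.36% lower. At an unadjusted p under 0.05, 2 of 9 members passed (Zfp36 and Fos), against 22.3% of all tested genes. Groups did not overlap for 3 of 9 members (Zfp36, higher in WT Fasting, and Ier2 and Myc, lower), against 49.7% of all tested genes. The median log2 fold change was 0.16 for the members and 0.037 for all tested genes. By the last pair of counts the shares of the members, 22.2% and 33.3%, were no higher than the shares of all genes. Scaling by library size alone changed the split of all calls, with 25.7% of them higher against 38.1% with TMM.

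Zfp36 was 51.3 and 49.0 CPM in the WT Refed livers and 72.8, 79.1 and 116 CPM in the WT Fasting livers. The NAMPT LKO Fasting livers held 66.2, 88.7, 93.0, 72.3 and 66.9 CPM. Every fasted liver of either genotype lay above both refed livers. The log2 fold change of WT Fasting over WT Refed was 0.83 (SE 0.22, 95% interval 0.35 to 1.31, adjusted p = 0.0436, edgeR's quasi-likelihood test). The call was near the threshold. It was lost without WT Fasting 3 (0.59, adjusted p = 0.0923), WT Fasting 2 (0.91, adjusted p = 0.0707), either WT Refed liver (adjusted p = 0.212 and 0.295) or NAMPT LKO 1, 2 or 4 (adjusted p = 0.0531, 0.0632 and 0.0602), and with scaling by library size alone (0.77, adjusted p = 0.0980). It stayed positive in each of these fits. Macrophage marker sums were 175, 173 and 306 CPM in WT Fasting livers and 167 and 131 CPM in WT Refed livers. Clec4f, Vsig4, Csf1r and Cd68 were each higher in every WT Fasting liver than in both refed livers, whereas Marco and Adgre1 overlapped. Groups did not overlap, in either direction, for 49.7% of all tested genes. The median log2 fold change of these markers was 0.59, and 0 were called. In NAMPT LKO Fasting livers the marker sums ran from 124 to 253 CPM. The part of macrophages in the result was not tested.

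Fos, the partner of JUN proteins in AP-1, was counted sparsely. It was 0.448 and 0.392 CPM in the WT Refed livers (20 and 17 counts) and 1.10, 0.434 and 2.49 CPM in the WT Fasting livers (46, 14 and 110 counts). The NAMPT LKO Fasting livers held 0.843, 1.19, 0.811, 1.74 and 1.36 CPM. WT Fasting 2 lay within the refed range and WT Fasting 3 was the highest of all 10 livers. The fold change of WT Fasting over WT Refed was 3.21 (log2 1.68, SE 0.65, 95% interval 0.26 to 3.11, adjusted p = 0.152), and Fos passed the 1 CPM filter through fasted livers alone, 5 of 8. Without WT Fasting 3 the log2 fold change was 0.87.

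For the other AP-1 members no difference between these feeding states was detectable. Junb was 24.6 and 16.2 CPM in WT Refed livers and 25.5, 20.0 and 50.8 CPM in WT Fasting livers. Only WT Fasting 3 stood well above the refed range, and the log2 fold change was 0.65 (SE 0.39, 95% interval -0.21 to 1.52, adjusted p = 0.358). Jun was 17.1 and 27.5 CPM against 30.8, 15.5 and 33.1 CPM, which overlapped (log2 fold change 0.25, 95% interval -0.93 to 1.43). Jund varied little in WT livers, 54.1 and 55.1 CPM against 53.6, 66.2 and 57.3 CPM (log2 fold change 0.11, 95% interval -0.53 to 0.76). Fosb did not pass the filter in any library, and its 2 to 22 counts per library (0.0461 to 0.498 CPM) overlapped among all groups, with WT Fasting 3 highest.

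Outside AP-1, the point estimates went both ways. Egr1 was 21.8 and 10.8 CPM in WT Refed livers and 22.4, 15.2 and 16.9 CPM in WT Fasting livers, so the WT Fasting values lay mostly inside the refed range (log2 fold change 0.16, 95% interval -0.94 to 1.25). Myc was 10.4 and 9.27 CPM against 8.86, 4.40 and 5.89 CPM, with all WT Fasting livers lower, and the log2 fold change of -0.62 (SE 0.31, 95% interval -1.29 to 0.057) was not called (adjusted p = 0.263). It was called by voomWithQualityWeights alone (-0.73, adjusted p = 0.0335). Ier2, a small nuclear early-response protein, was 21.9 and 23.1 CPM against 13.0, 15.6 and 21.9 CPM. Its highest WT Fasting liver lay just under its lowest refed liver (log2 fold change -0.42, 95% interval -1.09 to 0.26). Ier3 was 0.852 and 0.692 CPM against 0.431, 0.341 and 1.34 CPM, from 11 to 59 counts, and the interval was wide (log2 fold change -0.12, 95% interval -1.42 to 1.18). Ier3 passed the filter in 2 libraries, WT Fasting 3 and NAMPT LKO Fasting 2.

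**Figure D2:**
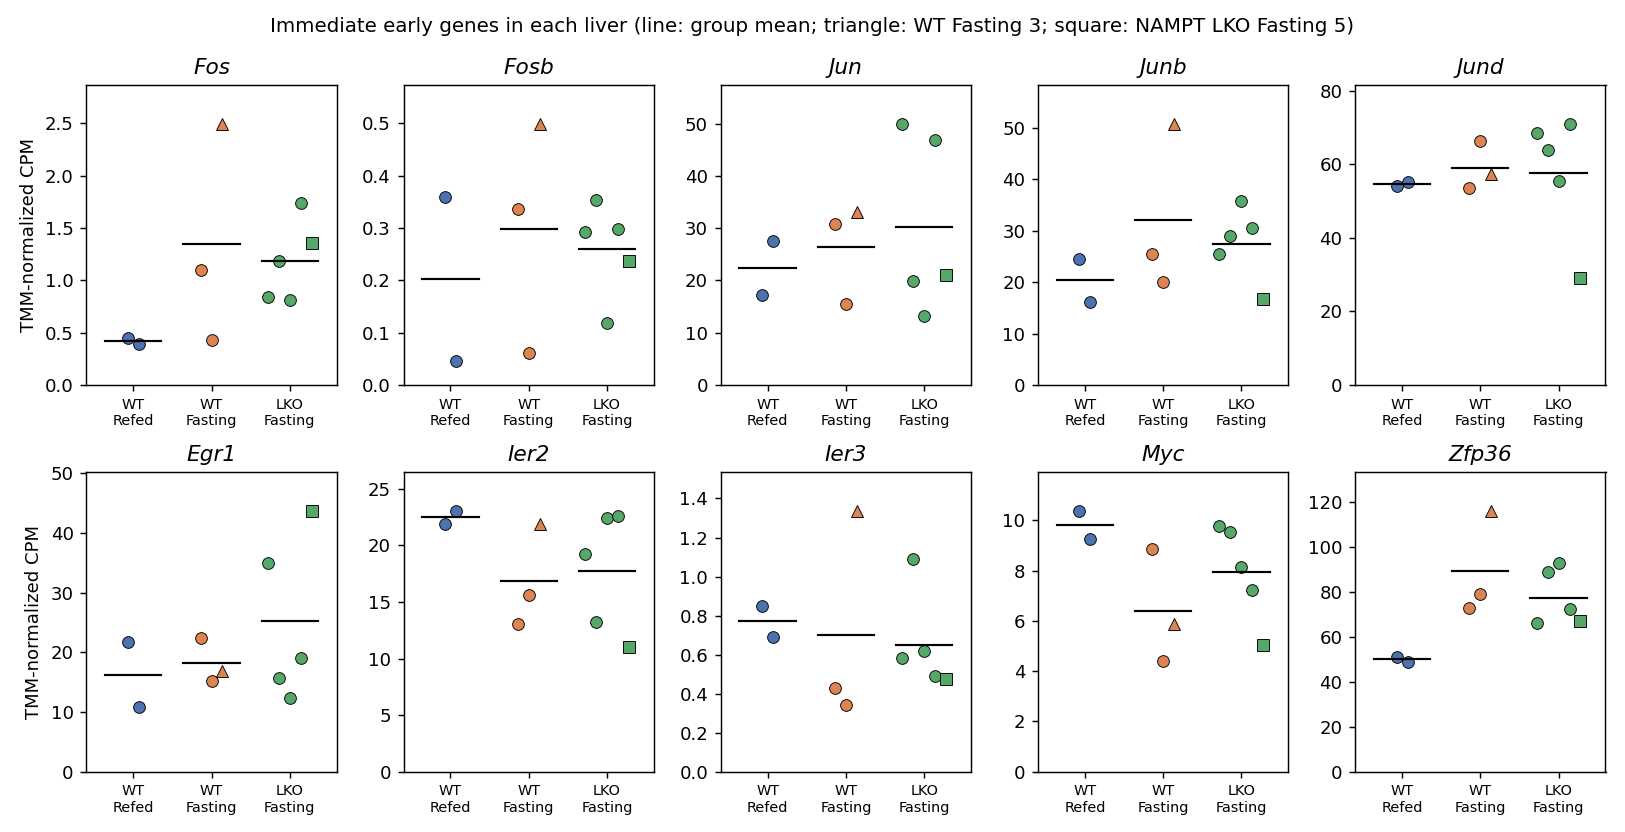
TMM-normalized CPM of each of the 10 genes in every liver of the 3 groups, on linear axes from 0, with a line at the group mean, a triangle for WT Fasting 3 and a square for NAMPT LKO Fasting 5. Zfp36 is higher in all 8 fasted livers than in both refed livers, and WT Fasting 3 is the highest of all livers for Fos, Fosb, Junb, Ier3 and Zfp36.

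The comparison of NAMPT LKO Fasting with WT Fasting livers asked whether loss of hepatocyte Nampt altered these genes in fasted liver. None of the 9 tested members was called by the edgeR quasi-likelihood test. In this comparison 0.00744% of tested genes, Nampt alone, were called. At an unadjusted p under 0.05, 0 of 9 members passed, against 6.03% of all tested genes, and the groups overlapped for every member, whereas they did not for 3.99% of tested genes. DESeq2, edgeR's exact test and voomWithQualityWeights called 0 members as well. The median log2 fold change was -0.036 for the members and 0.00025 for all tested genes.

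The intervals show how large a change remained possible. Zfp36 was the most precisely measured, with a log2 fold change of -0.21 (95% interval -0.58 to 0.17, adjusted p = 0.852), so a fall below 0.669-fold or a rise above 1.12-fold lay outside the interval. For Jund the log2 fold change was -0.036 (-0.55 to 0.48), for Ier2 0.073 (-0.48 to 0.62) and for Myc 0.31 (-0.24 to 0.87). Egr1 had the largest point estimate, 0.47 (-0.41 to 1.35, adjusted p = 0.859). Its NAMPT LKO livers held 35.0, 15.7, 12.4, 19.1 and 43.7 CPM, so 2 were above and 1 below all WT Fasting livers. Jun was as dispersed, with 49.9, 19.9, 13.2, 46.9 and 21.0 CPM in NAMPT LKO livers (log2 fold change 0.19, -0.76 to 1.13). For Fos and Ier3 the intervals ran from 0.427-fold to 1.80-fold and from 0.438-fold to 1.90-fold. Without WT Fasting 3 the point estimates of Fos, Junb, Ier3 and Zfp36 turned positive, to 0.61, 0.27, 0.74 and 0.027 on the log2 scale.

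NAMPT LKO Fasting and WT Refed livers differ in both genotype and feeding, and each of these groups also enters one of the comparisons above. Of 9 members, 0 were called higher and 0 lower, against 4.65% and 6.58% of all tested genes. At an unadjusted p under 0.05, Zfp36 and Fos passed, 2 of 9 members against 26.1% of all tested genes. For the same 2 genes the groups did not overlap, against 33.5% of all tested genes. Zfp36 was 1.54-fold higher in NAMPT LKO Fasting livers (log2 0.63, SE 0.20, adjusted p = 0.0712) and was called by DESeq2 (adjusted p = 0.0252), edgeR's exact test (adjusted p = 0.0492) and voomWithQualityWeights (adjusted p = 0.00230). It was also called without NAMPT LKO Fasting 5 (adjusted p = 0.0379) or WT Fasting 3 (adjusted p = 0.0332). Fos was 2.81-fold higher (log2 1.49, SE 0.61, 95% interval 0.15 to 2.84, adjusted p = 0.149) and was called by voomWithQualityWeights alone (adjusted p = 0.0470). It had entered the test through fasted livers alone, with 20 and 17 counts in the refed livers, so its results here lean on the filter. The remaining members had log2 fold changes from -0.34 (Ier2) to 0.63 (Egr1).

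**Figure D3:**
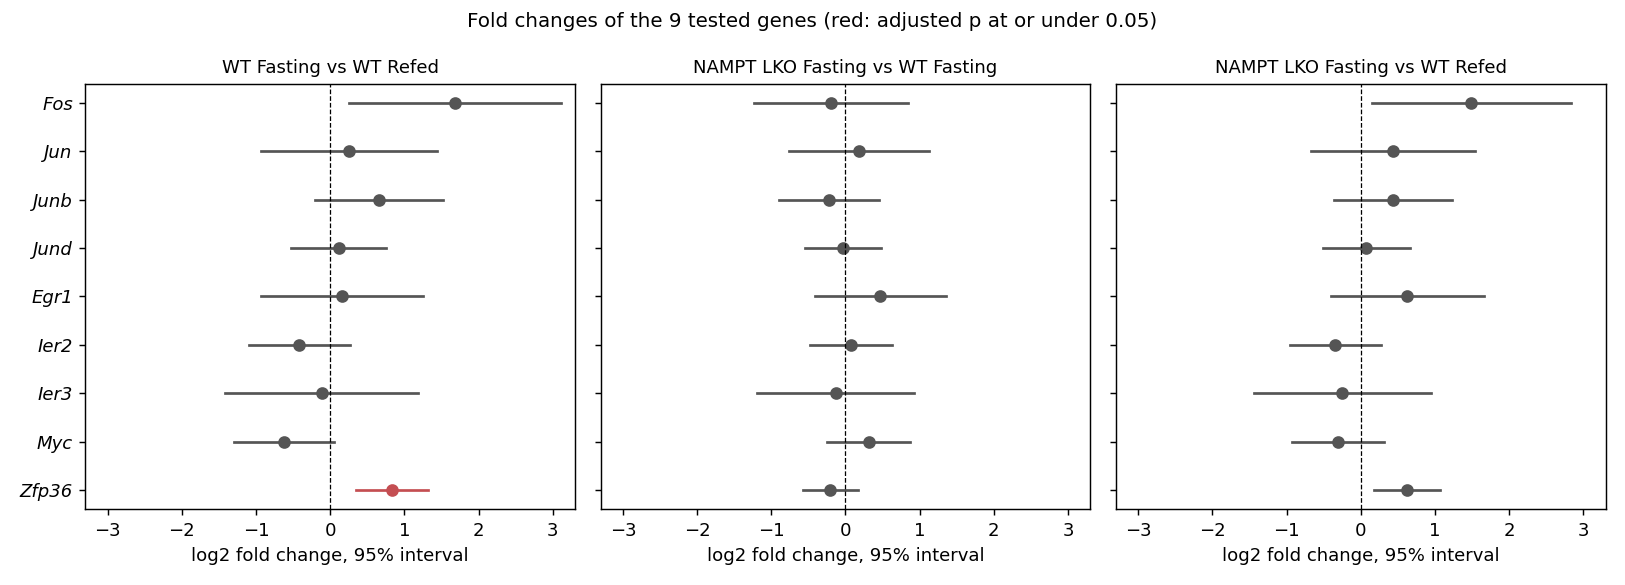
Log2 fold changes of the 9 tested genes in the 3 comparisons, with 95% intervals from edgeR's quasi-likelihood fit and called genes in red. Zfp36 in WT Fasting against WT Refed livers (0.83, interval 0.35 to 1.31) is the only red point, and every interval for NAMPT LKO Fasting against WT Fasting livers includes 0.

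The members varied strongly between mice of the same group. The within-group SD of log2 CPM was 0.72 for Jun, larger than in 98.1% of tested genes, and 0.65 for Egr1, larger than in 97.3%. The median over tested genes was 0.23. Fos (93.3%), Junb (92.9%), Jund (85.6%), Ier2 (84.6%), Ier3 (84.5%) and Myc (81.6%) also lay in the upper part of this ranking, and Zfp36 (57.3%) lay near the middle. The SD includes library NAMPT LKO Fasting 5, with its GC trend. Jund was 29.1 CPM there and 55.6 to 70.9 CPM in the other NAMPT LKO livers. The ranking did not match genes by depth, and Fos (14 to 110 counts) and Ier3 (11 to 59 counts) were counted sparsely. Jun ranged 3.78-fold among the 5 NAMPT LKO livers and Egr1 3.54-fold. Zfp36, in contrast, stayed within 66.2 to 93.0 CPM in this group.

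The high values were not in the same mice for every gene. WT Fasting 3 was the highest of the 10 livers for Fos, Fosb, Junb, Ier3 and Zfp36, NAMPT LKO Fasting 1 for Jun, NAMPT LKO Fasting 4 for Jund and NAMPT LKO Fasting 5 for Egr1. In WT Fasting 3 the macrophage marker sum was 306 CPM, against 124 to 253 CPM in the other 9 livers. The 5 neutrophil markers summed to 5.64 CPM there, against 1.62 to 3.94 CPM elsewhere, and Csf3r gave 3.51 CPM of this sum. Csf3r and S100a8 were highest in WT Fasting 3. S100a9, Retnlg and Ly6g, under 1 CPM in every liver, were each higher in another liver. The part of macrophages and neutrophils in the result was not tested. NAMPT LKO Fasting 3, in which 8 acute phase transcripts summed to 18265 CPM against 6018 to 8466 CPM in the other livers, had the lowest Jun of all livers (13.2 CPM) and the highest Junb (35.8 CPM) and Zfp36 (93.0 CPM) of its group.

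Over the 8 fasted livers, Fos was compared with each of the other 8 tested members on log2(CPM + 0.5). Pearson's r ran from -0.17 (Jund) to 0.62 (Ier3) and Spearman's rho from -0.095 (Myc) to 0.52 (Jun). None passed the exact permutation test, two-sided, and the lowest p was 0.108 for Ier3 (adjusted over 8 relations, 0.558). The lowest p for rho was 0.197, for Jun (adjusted 0.779). After leaving out the 2 livers farthest from the median of Fos, WT Fasting 3 and WT Fasting 2, r for Ier3 was -0.18, for Junb -0.27 and for Zfp36 -0.30, from 0.62, 0.56 and 0.39. The positive values of these genes therefore rested on those 2 livers.

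The 5 other genes whose log2 CPM over the 10 livers was most like the mean standardized level of the 9 tested members, among 9164 genes averaging 5 CPM or more, were Adarb1 (r = 0.95), Fbh1 (0.93), Pik3ap1 (0.87), Dennd5a (0.87) and H2-Aa (0.86). Adarb1 encodes an RNA-editing adenosine deaminase, Fbh1 a DNA helicase, Pik3ap1 a signalling adaptor and H2-Aa an MHC class II chain of antigen-presenting cells. All 5 were highest in WT Fasting 3, as was the member level by which they were picked (0.85), so the selection favoured such genes. H2-Aa reached 105 CPM there from a lowest liver of 4.97 CPM. These likenesses are descriptions over 10 livers.

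Library NAMPT LKO Fasting 5 bore on several members, which are GC-rich. Their GC content ran from 51.9% (Fos) to 67.1% (Jund), against a median of 49.6% and an upper quartile of 54.2% in tested genes. Jund was 29.1 CPM in this library and 55.6 to 70.9 CPM in the other 4 NAMPT LKO livers, a difference of -1.13 on the log2 scale. Junb (-0.82), Ier2 (-0.76), Myc (-0.71) and Ier3 (-0.27) were likewise below all 4. After a loess trend with GC content was removed from each library, the differences were -0.081 for Jund, -0.087 for Junb and -0.13 for Ier2. For Myc the difference was -0.53, and Egr1 went the other way, 1.18 above the mean of the other 4 before and 1.60 after. Without this library the log2 fold change of Jund between fasted genotypes was 0.13 instead of -0.036, and no member was called.

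**Figure D4:**
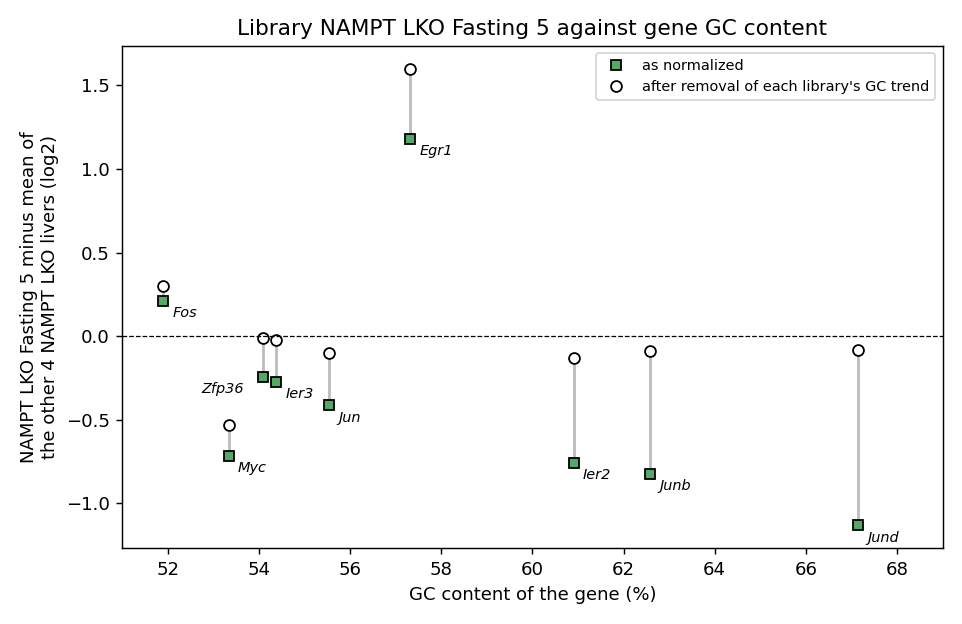
Difference on the log2 scale between library NAMPT LKO Fasting 5 and the mean of the other 4 NAMPT LKO Fasting livers for the 9 tested genes, against the GC content of the gene in %, before (squares) and after (circles) removal of each library's GC trend. Jund, at 67.1% GC, moves from -1.13 to -0.081, and Egr1 moves from 1.18 to 1.60.

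Genes around the members were examined by lists of relatives, regulators and targets. Of 35 other immediate early and early response genes, 30 were tested, and 10 were called higher and 1 lower in WT Fasting than in WT Refed livers, with a median log2 fold change of 0.72. Over all tested genes 2.68% were called higher and 4.36% lower, with a median of 0.037. None was called between genotypes in the fasted state (quasi-likelihood test of edgeR). Gadd45b, a stress-induced growth arrest gene, rose from 3.61 and 4.43 CPM to 12.6, 17.9 and 19.6 CPM (log2 fold change 2.05, SE 0.28, adjusted p = 0.00245). Cebpd, a transcription factor of the acute phase and of hormone responses, rose from 8.43 and 7.12 CPM to 34.6, 33.9 and 27.1 CPM (2.03, SE 0.22, adjusted p = 0.000733). Ccn2, a secreted matricellular protein, rose from 4.08 and 4.63 CPM to 15.4, 17.0 and 15.1 CPM (1.86, SE 0.37, adjusted p = 0.0135). For these 3 genes no WT Fasting liver overlapped a refed one, as for 49.7% of all tested genes, and WT Fasting 3 was the highest for Gadd45b alone. Cebpb, Pim3, Btg1, Nfkbia, Sgk1, Errfi1 and Per1 were the other 7 called higher, with log2 fold changes from 0.72 to 1.48. They were not equally firm. Of 10 fits with 1 library left out, the call of Per1 was lost in 8 and that of Sgk1 in 6. The remaining calls were lost in 0 (Pim3) to 3 (Cebpb). Trib1, a pseudokinase, fell from 74.8 and 63.1 CPM to 28.0, 40.6 and 39.5 CPM (-0.94, adjusted p = 0.0213). Without WT Fasting 3 the counts were again 10 and 1, and without NAMPT LKO Fasting 5 they were 13 and 3. With 1 refed liver left they were 4 and 0 (without WT Refed 1) or 3 and 0 (without WT Refed 2), and voomWithQualityWeights gave 16 and 3.

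Among the relatives of the AP-1 members, Maf, a basic leucine zipper factor, was 68.9 and 64.1 CPM in WT Refed livers and 89.8, 104 and 87.7 CPM in WT Fasting livers (log2 fold change 0.50, SE 0.13, adjusted p = 0.0447). Among 8 tested genes of the MYC network, Mycl, a MYC paralogue, rose from 3.25 and 1.94 CPM to 15.3, 11.9 and 11.8 CPM (2.32, SE 0.28, adjusted p = 0.00131), whereas Myc itself was not called. Whether Mycl and Myc differed in their response was not tested. In NAMPT LKO Fasting against WT Refed livers Mycl was also called higher (2.39, adjusted p = 0.000598).

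Between WT Fasting and WT Refed livers, 2.68% of all tested genes were called higher and 4.36% lower. Upstream of the members, the SRF, ETS and CREB regulators gave 1 called higher of 13 tested, the ETS factor Elk4 (0.61, adjusted p = 0.0105). The MAPK cascade gave 1 called lower of 18 tested, the receptor Egfr, which was 300.2 and 514 CPM in WT Refed livers and 214, 180 and 232 CPM in WT Fasting livers (-0.96, adjusted p = 0.0260). Among 12 tested MAPK feedback inhibitors, Dusp1, a phosphatase that inactivates MAP kinases and is itself an early gene, rose from 13.0 and 12.8 CPM to 41.0, 29.1 and 42.5 CPM (1.54, SE 0.26, adjusted p = 0.00704). Dusp1 was 18.8, 27.1, 26.1, 38.1 and 25.5 CPM in NAMPT LKO Fasting livers, which overlapped the WT Fasting livers (-0.47, adjusted p = 0.827). A list of 12 tested genes linked to ZFP36 in mRNA turnover held decay factors, the paralogues Zfp36l1 and Zfp36l2, and Elavl1. Of these 12, 0 were called between the feeding states in WT mice (quasi-likelihood test of edgeR). Elavl1, which encodes an mRNA-stabilizing protein that also binds AU-rich elements, had the lowest p of the list (-0.39, adjusted p = 0.0503). In NAMPT LKO Fasting against WT Refed livers, 9 of the 30 tested other early response genes were called higher and 0 lower. Over all tested genes 4.65% were called higher and 6.58% lower there. Fewer genes of this list were called with 1 refed liver left, whichever it was, and voomWithQualityWeights gave 16 higher and 2 lower. Of the remaining lists, the calls there were Maf, Elk4, Dusp1, Mycl, Mxi1, Braf and Cnot6l (higher) and Egfr, Mapk14, Mlx and Elavl1 (lower). Of these, Mycl was called in every fit with 1 library left out, and the others lost the call without WT Refed 2, most of them without WT Refed 1 as well. In NAMPT LKO Fasting against WT Fasting livers 0 genes of these lists were called. Without either refed liver no gene of the AP-1 relatives, the SRF, ETS and CREB regulators or the MAPK feedback inhibitors was called between feeding states in WT mice, so the calls of Maf, Elk4 and Dusp1 needed both. The call of Maf was also lost on leaving out any single fasted liver other than NAMPT LKO Fasting 1 or 5. The call of Egfr was lost without WT Refed 2, WT Fasting 1 or WT Fasting 2, that of Ccn2 without either refed liver, and that of Trib1 without either refed liver or WT Fasting 1. The lists were drawn up with results of these data known, and their counts are given as descriptions.

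**Figure D5:**
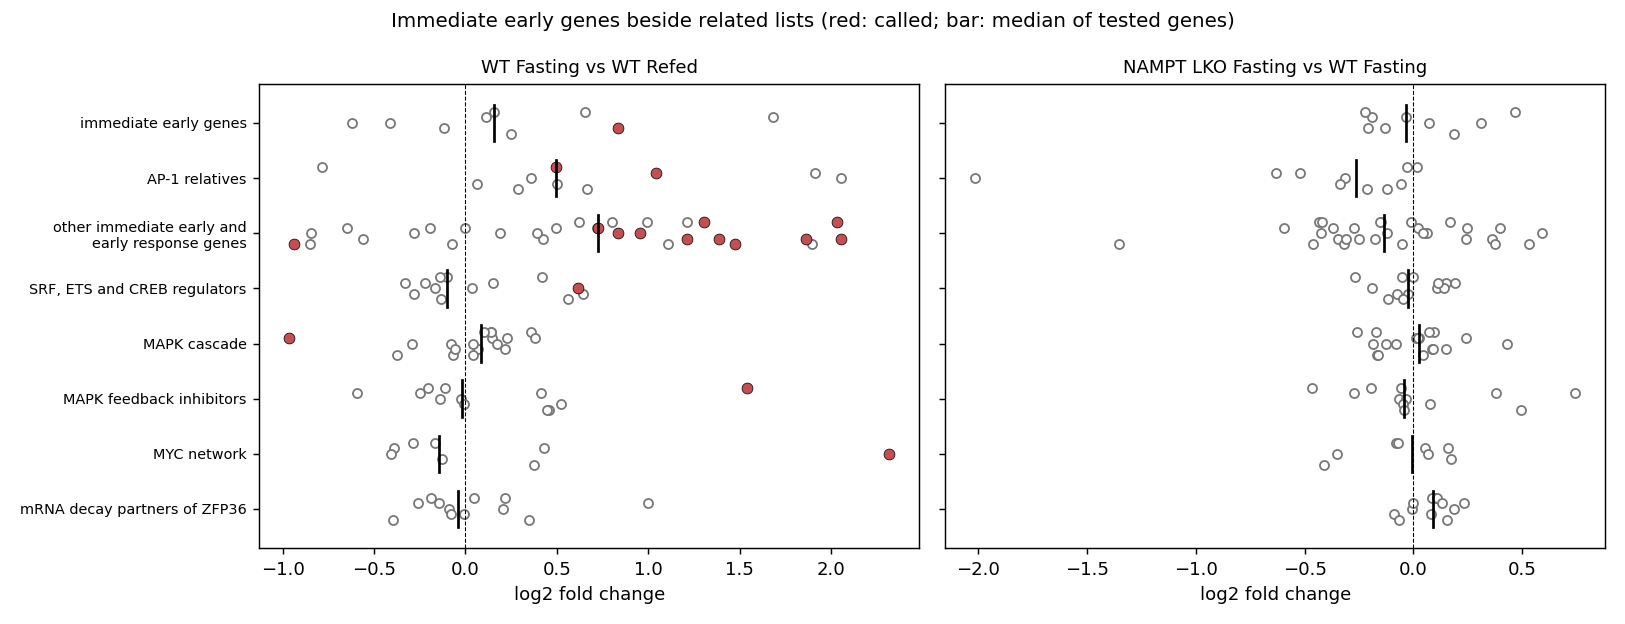
Log2 fold changes of the tested genes of each list in WT Fasting against WT Refed livers (left) and NAMPT LKO Fasting against WT Fasting livers (right), with called genes in red and a bar at the list median. On the left, 10 of 30 other early response genes are called higher and 1 lower, against 1 of 9 immediate early genes, and on the right no gene is called.

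Other cell type markers were checked in the same libraries. All markers of hepatocytes, macrophages, neutrophils, lymphocytes, stellate cells, sinusoidal endothelium, cholangiocytes and red cells were above 0 in each group. Of 4 markers listed for pancreatic acinar cells, Cpa1 and Prss2 were 0 in every liver and Pnliprp1 was at most 0.124 CPM. Only Cela1, at 3.62 to 7.17 CPM, was well above 0, and whether it came from acinar cells was not tested. No marker was called between feeding states in WT mice or between genotypes in the fasted state (quasi-likelihood test of edgeR). In NAMPT LKO Fasting against WT Refed livers, the cholangiocyte markers Spp1 (log2 fold change 1.55) and Epcam (1.67), the stellate cell marker Col1a1 (2.47) and the endothelial marker Kdr (0.37) were called higher. Cela1 (-0.66) was called lower. Summed cholangiocyte markers were 34.0 to 54.5 CPM in NAMPT LKO livers, above the 15.2 to 22.4 CPM of WT livers of either feeding state. Most of the NAMPT LKO sums was Spp1, at 19.4 to 37.8 CPM against 8.67 to 11.8 CPM in WT livers. Epcam, at lower levels, also did not overlap between genotypes, whereas Sox9, Krt7 and Krt19 did. The part of cholangiocytes in the values of the immediate early genes was not tested.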

How the data were processed

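Liver RNA was measured by poly-A RNA-seq with short single reads in 2 WT Refed, 3 WT Fasting and 5 NAMPT LKO Fasting mice, grouped by the labels. The labels do not number the WT Refed mice. The authors aligned reads with STAR (2.5.1a per the submitters' processing notes) to GRCm38 and counted them with featureCounts (1.4.6-p5). The authors deposited raw counts per Ensembl gene, CPM (counts scaled to the library total) and RPKM (CPM per kilobase of exon). The deposited counts were used. CPM and RPKM in the text were recomputed on TMM-scaled library sizes.

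Genes over 1 CPM in at least 1 library, rRNA excluded, were fitted with edgeR 4.0.16 (glmQLFit, 1 mean per group, all 10 libraries, Benjamini-Hochberg over 13444 genes) in R 4.3.3. The test was tested on simulated data. Alternatives were DESeq2 1.42.0, limma 3.58.1 (voomWithQualityWeights), edgeR's exact test, other scalings, no filter, leaving out each library in turn and a replicate block. Removal of a GC trend (loess span 0.5) and the fit of libraries numbered 1 to 3 without a block were added after seeing the data. Exact permutation tests used scipy 1.17.1.

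Members and lists were chosen with earlier results of these data known. Named genes were the 10 members, Nampt, up to 3 called genes per list and comparison with the largest changes (or the lowest p where none was called), and the 5 genes most like the members. Not every gene this selects is reported here. The other called genes of the early response list were named after their values were seen. Sequences are from RefSeq.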

Additional observations from a re-analysis of the deposited data

Results flagged for a closer look

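Among the 5 NAMPT LKO Fasting livers, Ier3 was far higher in mouse 2 (1.09 CPM, 34 counts) than in the others (0.473 to 0.620 CPM, 16 to 26 counts). The gap to the nearest liver was 0.761 of the group's range, above Dixon's 95% limit of 0.71 for 5 samples. It was the only one of 10 genes past that limit, and chance alone gives about 0.5 of 10. The refed livers, at 0.852 and 0.692 CPM, lay between this liver and the rest.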

How the results depend on the processing

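Counts of Fos, Fosb and Ier3 limit their precision, and the 2 refed livers limit every comparison with the refed state. Members called in WT Fasting against WT Refed livers numbered 1, but 2 with voomWithQualityWeights, 0 with library size alone and 0 to 1 with each library left out. In NAMPT LKO Fasting against WT Refed livers they numbered 0, but 1 with DESeq2, edgeR's exact test and removal of the GC trend, 2 with voomWithQualityWeights and 0 to 1 with each library left out. Between fasted genotypes they numbered 0 under every alternative run, the replicate block included. Causes of these changes were not tested.

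Over all genes, 946 calls between WT Fasting and WT Refed became 1646 with DESeq2, 3331 with voomWithQualityWeights, 1423 after GC removal and 107 (without WT Refed 2) to 2235 (without NAMPT LKO 5) with each library left out. The 1510 calls between NAMPT LKO Fasting and WT Refed became 2242 with DESeq2, 4281 with voomWithQualityWeights and 226 (without WT Refed 2) to 2835 (without NAMPT LKO 5) with each library left out. Without WT Refed 1 these 2 comparisons gave 192 and 347 calls. The first gave 538 without WT Fasting 1 and 466 without WT Fasting 2, and the second 984 without NAMPT LKO 2. With library size alone 26.1% of calls between NAMPT LKO Fasting and WT Refed were higher, against 41.4% with TMM. Between fasted genotypes 1 call became 21 with DESeq2, 24 with edgeR's exact test, 17 without the filter, 2 with library size alone, 3 after GC removal and 1 to 2 with each library left out. The replicate block over libraries numbered 1 to 3 gave 0 calls, as did the same libraries without it. Same-numbered WT Fasting and NAMPT LKO Fasting libraries correlated in their deviations from group means at 0.11, 0.064 and 0.13, against a mean of -0.058 over the other pairs. So few pairs cannot settle whether same-numbered libraries share more than a number. Every member stayed uncalled under the block.

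Uncalled members changed sign in some fits. Between fasted genotypes, voomWithQualityWeights gave 0.43 for Fos, 0.23 for Junb, 0.050 for Jund and 0.56 for Ier3 on the log2 scale, the replicate block gave -0.073 for Jun, 0.0058 for Junb, 0.085 for Jund and 0.25 for Ier3, libraries numbered 1 to 3 without the block gave 0.085 for Jund and 0.097 for Ier3, and GC removal gave 0.050 for Jund. With each library left out, the log2 fold changes between WT Fasting and WT Refed ranged from -0.062 to 0.62 for Jun, -0.27 to 0.74 for Egr1 and -0.99 to 0.20 for Ier3. Between fasted genotypes they ranged from -0.60 to 0.61 for Fos, -0.086 to 0.38 for Jun, -0.47 to 0.27 for Junb, -0.12 to 0.13 for Jund, -0.082 to 0.31 for Ier2, -0.45 to 0.74 for Ier3 and -0.33 to 0.027 for Zfp36, with the extremes of Fos, Junb and Ier3 in the fits without WT Fasting 2 and WT Fasting 3. For Jund between NAMPT LKO Fasting and WT Refed they ranged from -0.0094 to 0.25. The correlations with Fos turned to -0.27 for Junb, -0.16 for Ier2, -0.18 for Ier3, -0.53 for Myc and -0.30 for Zfp36 without the 2 livers farthest from the median of Fos.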
